A study of Homo sapiens with 16 samples.

Results

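BHLHA15, also called MIST1, and 6 genes of regulated secretion were followed across LNCaP cells in which the transcription factor XBP1 was knocked down or its activating enzyme IRE1α was inhibited. The 7 genes were chosen by name: BHLHA15 itself, 4 genes reported as its targets in secretory tissues (RAB3D, RAB26, ATP2C2 and GJB1), and RAB27A and RAB27B, paralogues of the granule RABs. All 7 were found among the 58051 genes of the count table, and all 7 passed the filter on low counts in both comparisons. LNCaP is an androgen-responsive epithelial line derived from a lymph node metastasis of a prostate cancer. RNA was sequenced from 16 libraries in 4 groups of 4.

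The siXBP1 cells were reverse-transfected with siRNA against XBP1 and the siCtrl cells with Allstar control siRNA, in both cases for 2 days. The MKC8866 cells received 10 µM MKC8866, an inhibitor of the IRE1α RNase, and the Vehicle cells DMSO, in both cases for 24 h. Every culture, controls included, was then given 30 nM thapsigargin for 3 h. Thapsigargin blocks the calcium pump of the endoplasmic reticulum and thereby induces the unfolded protein response, so no group shows unstressed cells. The siRNA and inhibitor arms also differed in transfection, solvent and duration, which cannot be told apart from the kind of inhibition. The study calls the libraries of a group independent samples, but neither it nor the labels say whether they came from separate cultures, so the p values measure the spread between libraries, which may be partly technical.

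Under stress in the endoplasmic reticulum, IRE1α splices XBP1 mRNA, and the spliced form encodes XBP1s, an activator of chaperones, the translocation machinery and vesicle transport. BHLHA15 is a basic helix-loop-helix factor best known from pancreatic acinar cells, gastric chief cells and plasma cells, where it is induced downstream of XBP1 and supports the build-up and trafficking of secretory granules. It binds E-boxes as a homodimer or with E proteins. The RAB proteins studied here are small GTPases that bring granules to the plasma membrane, ATP2C2 pumps calcium and manganese into the Golgi, and GJB1 encodes connexin 32 of gap junctions.

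To show the DNA next to the genes whose levels moved, promoters were taken from RefSeq on GRCh38.p14, as windows of 250 bases before and 50 bases after each annotated start. The table held 10 such windows for 5 of the 7 genes, and none for RAB26 or ATP2C2. The stretches below run 5′ to 3′ on the strand of the gene and end 30 bases after the start, and position 1 is the first transcribed base. Capitals mark E-boxes (CANNTG), the letters ACGT, which form the core of XBP1s sites, and the letters CCACG or CGTGG, which form the 3′ part of an endoplasmic reticulum stress element. The first stretch is that of BHLHA15 on the plus strand (chr7:98211189-98211468), and the second that of RAB3D on the minus strand (chr19:11339628-11339907), the 2 genes called lower after knockdown.
BHLHA15: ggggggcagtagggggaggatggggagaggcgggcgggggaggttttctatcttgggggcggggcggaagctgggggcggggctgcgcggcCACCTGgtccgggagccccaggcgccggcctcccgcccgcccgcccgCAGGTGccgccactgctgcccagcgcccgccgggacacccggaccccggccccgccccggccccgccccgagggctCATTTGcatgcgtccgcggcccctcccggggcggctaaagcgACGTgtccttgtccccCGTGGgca
RAB3D: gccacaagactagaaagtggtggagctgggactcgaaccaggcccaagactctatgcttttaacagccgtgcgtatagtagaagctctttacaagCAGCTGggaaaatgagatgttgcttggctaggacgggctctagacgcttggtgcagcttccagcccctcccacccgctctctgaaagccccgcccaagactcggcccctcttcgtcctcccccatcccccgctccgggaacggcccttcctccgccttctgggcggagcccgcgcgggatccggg

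The BHLHA15 window held 3 E-boxes, starting at positions −159, −112 and −36, and within its first 30 transcribed bases ACGT from position 7 and the complement of CCACG from position 23. The RAB3D window held 1 E-box from position −155, and neither of the other motifs on either strand. These letters are common. Of 34943 distinct promoter windows of the same length, 68.7% held an E-box, 33.3% the ACGT core and 38.1% the CCACG motif on either strand, and 17.9% held the E-box of RAB3D. CATATG, an E-box that BHLHA15 is known to bind, was rarer, at 3.05% of windows, and among the members it lay in 1 of the 5 RAB27A windows, from position −45, next to a second E-box with the letters of the one in RAB3D. The E-boxes are in capitals in the 30 bases around it (minus strand, chr15:55270427-55270456).
RAB27A: ggtctgcagtgcCATATGacaaaCAGCTGa

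Of longer motifs, TGACGTG, searched on both strands, lay in 1.97% of windows and in another of the RAB27A windows, from position −223. The full stress element, CCAAT followed after 9 bases by the CCACG motif, lay in 0.0773% of windows. Its shorter form, ATTGG followed after 1 base by the same motif, lay in 0.0544%. Neither was found in the 10 windows of the members. A match describes the letters only, and the binding of a factor was not measured here.

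The libraries held 28713607 to 34509488 counted fragments. Counts were scaled to CPM, the counts of a gene relative to a fixed library total, with TMM factors, and all values below are in CPM unless they are named otherwise. A gene was called changed where the p value of edgeR's quasi-likelihood test (two-sided), adjusted by Benjamini-Hochberg over all genes tested, was below 0.05. XBP1, the target of the siRNA, stood at 384 ± 29.5 CPM in siCtrl and 53.4 ± 1.32 in siXBP1 cells (SD, n = 4). In the inhibitor arm XBP1 rose, from 501 ± 25.6 CPM in Vehicle to 577 ± 30.7 in MKC8866 cells (log2 fold change 0.20, adjusted p = 0.00493). These counts do not separate the spliced form of XBP1 from the unspliced one. The study reports a loss of the spliced form relative to the unspliced one with both treatments. The 7 prostate luminal markers followed summed to 2651.61 to 3667.18 CPM over the 16 libraries. Of the defining acinar genes, PTF1A, CPA1 and AMY2A had no count in any library, and of the 6 plasma cell genes, JCHAIN and TNFRSF17 were at 0.0506 CPM at most in the group means. The plasma cell list summed to 42.2 to 54.7 CPM, mostly from SDC1, a syndecan that epithelial cells also express, at 42.8 to 49.1 CPM in the group means, and MZB1 stood at 2.44 to 3.44.

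BHLHA15 itself fell further than any other tested gene in both comparisons, to 8.34% of its control level after knockdown and to 19.9% with the inhibitor. In the 4 siCtrl libraries it stood at 28.3, 36.5, 29.9 and 28.9 CPM, and in the 4 siXBP1 libraries at 2.12, 2.41, 2.86 and 2.90. In Vehicle cells it stood at 33.3, 29.9, 30.0 and 32.1, and in MKC8866 cells at 6.20, 5.11, 6.89 and 6.72. All 4 treated libraries lay below all 4 controls in each arm, which by any margin was so for 16.7% of all genes tested after knockdown and for 5.15% with the inhibitor. The inhibitor libraries all lay above the knockdown libraries. The counts behind these levels ran from 61 in a siXBP1 library to 1221 in a siCtrl library.

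The log2 fold change of BHLHA15 was −3.58 ± 0.10 after knockdown (SE, adjusted p = 3.74e-17), with 8.34% left (95% interval 7.19 to 9.66%). With MKC8866 it was −2.33 ± 0.08 (adjusted p = 2.93e-16), with 19.9% left (17.8 to 22.2%). By size of fall BHLHA15 ranked 1 among the 21021 genes tested after knockdown, where XBP1 ranked 3, and 1 among the 21045 tested with the inhibitor. The fall was larger after knockdown by −1.25 on the log2 scale (interval −1.54 to −0.96, adjusted p = 7.28e-08 for the interaction). Of all genes tested, 23.3% were called in this interaction, 12.7% negative and 10.6% positive. In these bulk samples, a loss in some cells and a smaller amount of RNA in every cell cannot be told apart.

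Ordered by level, the Vehicle and siCtrl groups came first, at 31.3 ± 1.68 and 30.9 ± 3.77 CPM, and did not differ beyond their spread (log2 difference −0.03, interval −0.18 to 0.12, adjusted p = 0.859). MKC8866 cells followed at 6.23 ± 0.80 and siXBP1 cells came last at 2.57 ± 0.38. The 2 treated groups differed by −1.28 on the log2 scale, siXBP1 against MKC8866 (adjusted p = 1.18e-09), a comparison in which 31.1% of all genes tested were called, 16.9% lower and 14.2% higher.

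**Figure D1:**
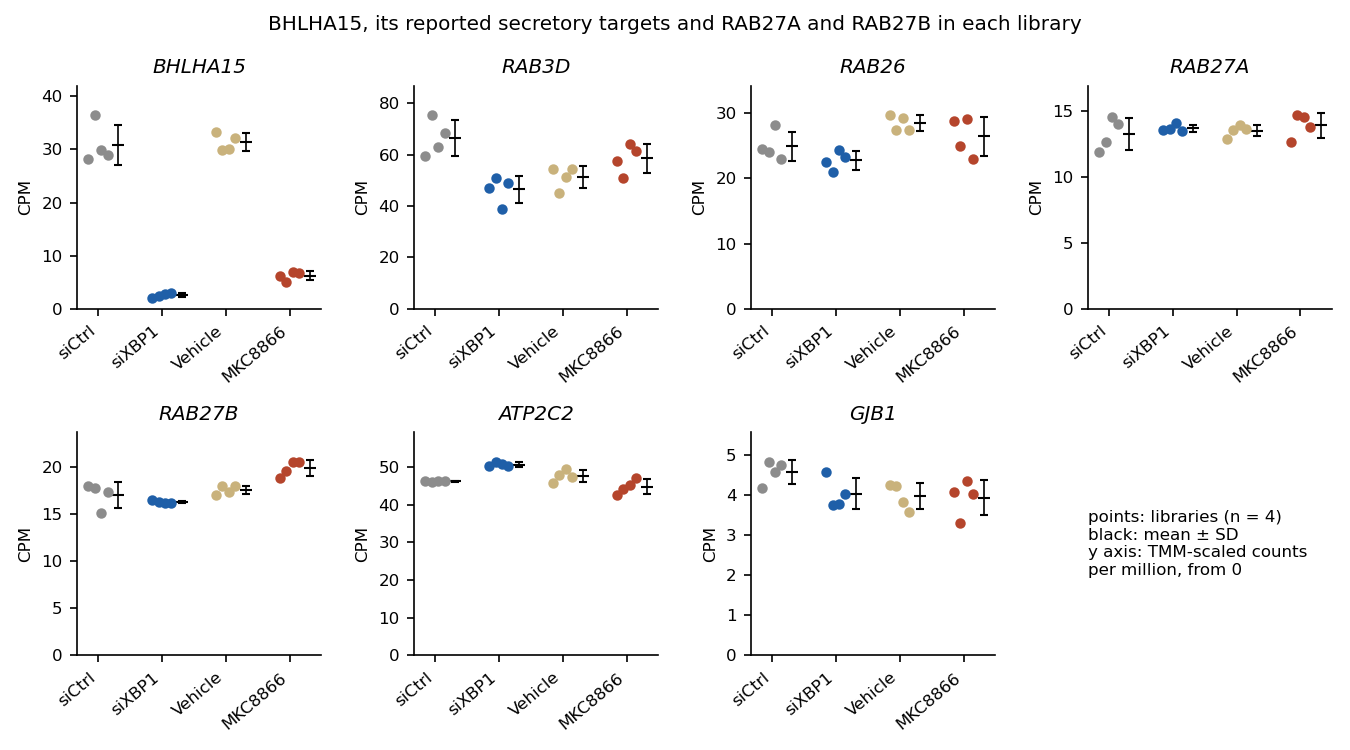
Level of each of the 7 genes in CPM (y axis, from 0) in the 16 libraries, by group (x axis). Coloured points are libraries and black marks the mean ± SD (n = 4). BHLHA15 drops from about 31 to 2.57 CPM after knockdown and to 6.23 CPM with MKC8866, and the other 6 genes stay within a narrow band, with RAB3D lower in siXBP1 than in siCtrl libraries.

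The 6 other genes did not share this fall. After knockdown 1 of the 6 was called lower (RAB3D), 1 higher (ATP2C2) and 4 were not called, where 34.8% of all genes tested were called, 18.2% lower and 16.5% higher. With MKC8866 edgeR called 0 of the 6, where 4.47% of all genes tested were called, 3.11% lower and 1.36% higher. At an unadjusted p under 0.05 there were 2 (RAB3D and RAB27B), and DESeq2 called 0 as well. In that arm a block for the replicate number led edgeR to call RAB3D and RAB27B higher, where 13% of all genes tested were called. The labels do not say that this number marks a shared culture or day. The median log2 fold change of the 6 was −0.10 after knockdown and 0.01 with the inhibitor, beside 0.005 and 0.003 over all genes tested. No bound of the 95% intervals of the 6 genes lay further from 0 than 0.67 after knockdown or 0.32 with MKC8866, on the log2 scale.

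**Figure D2:**
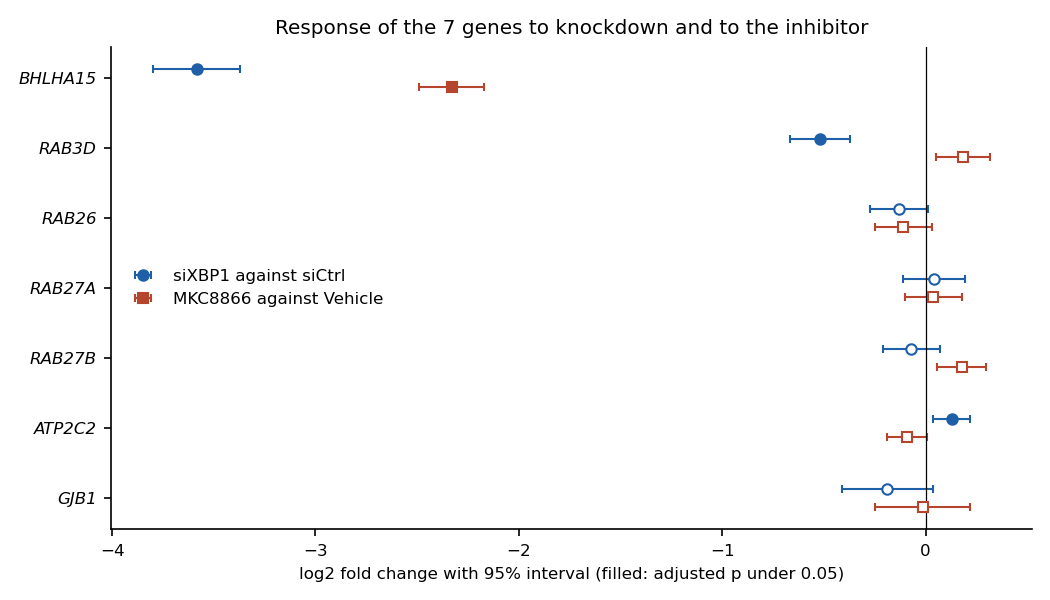
Log2 fold change (x axis) of the 7 genes (y axis) for siXBP1 against siCtrl (blue circles) and MKC8866 against Vehicle (red squares), with 95% intervals. Filled symbols passed the adjusted p of 0.05. BHLHA15 lies at −3.58 and −2.33, RAB3D at −0.52 and 0.18, and the other genes within 0.19 of 0.

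Among the small GTPases, RAB3D (ENSG00000105514, chr19:11322046-11346270 on the minus strand of hg38), which coats mature secretory granules, was the member with the largest fall after BHLHA15. Its siCtrl libraries stood at 59.3, 75.4, 62.8 and 68.4 CPM and its siXBP1 libraries at 47.1, 50.9, 39.0 and 49.0. All 4 knockdown libraries lay below all 4 controls, as in 16.7% of all genes tested. The log2 fold change was −0.52 ± 0.07 (adjusted p = 4.31e-06), a loss of 30.2% of the control level (interval 22.7 to 37.0%).

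With the inhibitor the fitted change of RAB3D had the opposite sign and did not pass the test. The Vehicle libraries stood at 54.5, 45.2, 51.5 and 54.3 CPM and the MKC8866 libraries at 57.7, 50.9, 64.2 and 61.3, so the groups overlapped. The log2 fold change was 0.18 ± 0.06 (adjusted p = 0.122, interval 0.05 to 0.32). It passed without MKC8866 replicate 2, the lowest inhibitor library (0.24, adjusted p = 0.011), and with no filter on low counts (0.19, adjusted p = 0.0141). With a block for the replicate number it passed as well (0.18, adjusted p = 0.000244). The responses to knockdown and inhibitor differed by −0.70 (interval −0.92 to −0.48, adjusted p = 1.03e-05).

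The 2 control groups of RAB3D were themselves unequal. The siCtrl cells lay 0.36 above the Vehicle cells on the log2 scale (adjusted p = 0.00104), the only one of the 7 genes called between controls, where 15% of all genes tested were called, 7.39% lower and 7.65% higher. DESeq2 also called RAB26 there (log2 difference −0.19, adjusted p = 0.0493). In order of level, siCtrl (66.5 ± 7.02 CPM) came before MKC8866 (58.5 ± 5.73), Vehicle (51.4 ± 4.35) and siXBP1 (46.5 ± 5.22), and the libraries of each pair of neighbours in that order overlapped. Of the exon bases of RAB3D, 20.5% were shared with the unnamed gene ENSG00000267576 on the other strand, which had no count in any library, and 3.26% each with TMEM205 and CCDC159. Counting without strand leaves fragments in such shared stretches unassigned. TMEM205 had log2 fold changes of −0.10 after knockdown (adjusted p = 0.315) and −0.14 with MKC8866 (adjusted p = 0.404). CCDC159 had 0.06 after knockdown (adjusted p = 0.677) and fell with MKC8866 (−0.24, adjusted p = 0.0134).

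RAB26 (ENSG00000167964, chr16:2140803-2154165, plus strand), a granule RAB that is a direct target of BHLHA15 in stomach, ran from 23.0 to 28.1 CPM in siCtrl and from 20.9 to 24.4 in siXBP1 libraries. In Vehicle libraries it ran from 27.4 to 29.7 and in MKC8866 libraries from 23.0 to 29.1, so treated and control libraries overlapped in both arms. The log2 fold change was −0.13 after knockdown (interval −0.27 to 0.01, adjusted p = 0.151) and −0.11 with MKC8866 (−0.25 to 0.03, adjusted p = 0.498). At the lower bounds of these intervals the loss would be 17.2% and 16.0% of the control level. Knockdown and inhibitor responses differed by −0.02 (−0.23 to 0.19, adjusted p = 0.926). In order of level the groups were Vehicle, MKC8866, siCtrl and siXBP1, with overlap between neighbours, and siXBP1 cells lay 0.22 below MKC8866 cells on the log2 scale (adjusted p = 0.0189), a difference that lost its call without siXBP1 replicate 2 or MKC8866 replicates 1 or 3 (adjusted p up to 0.0955).

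RAB27A (ENSG00000069974, chr15:55202966-55319113, minus strand) and RAB27B (ENSG00000041353, chr18:54717860-54895516, plus strand) tether granules to the plasma membrane through shared effectors. RAB27A was the steadiest of the members, with group means of 13.3 ± 1.21 (siCtrl), 13.7 ± 0.265 (siXBP1), 13.5 ± 0.449 (Vehicle) and 13.9 ± 0.934 CPM (MKC8866) that overlapped throughout. Its log2 fold change was 0.04 after knockdown (interval −0.11 to 0.19, adjusted p = 0.733) and 0.04 with the inhibitor (−0.10 to 0.18, adjusted p = 0.867). None of the 5 comparisons called RAB27A, whose lowest unadjusted p was 0.578.

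RAB27B stood at 17.98, 17.8, 15.1 and 17.3 CPM in siCtrl libraries and at 16.5, 16.3, 16.2 and 16.2 in siXBP1 libraries, which overlapped. In Vehicle libraries it stood at 17.1, 17.97, 17.3 and 17.9 and in MKC8866 libraries at 18.8, 19.6, 20.6 and 20.6. All 4 inhibitor libraries thus lay above all 4 controls, as did 4.03% of all genes tested. The log2 fold change was 0.18 ± 0.06 with MKC8866 (interval 0.05 to 0.30, adjusted p = 0.106) and −0.07 after knockdown (−0.21 to 0.07, adjusted p = 0.473). With a block for the replicate number the change with MKC8866 was called (0.18, adjusted p = 0.0173). The difference between the responses was −0.24 (adjusted p = 0.0352), and this call was lost without any 1 of 10 of the 16 libraries (siCtrl replicates 1, 2 and 4, siXBP1 replicates 2, 3 and 4, Vehicle replicates 1 and 3, and MKC8866 replicates 3 and 4, with adjusted p up to 0.0792) and with no filter on low counts (−0.24, adjusted p = 0.0984). In order of level MKC8866 cells came first, apart from Vehicle cells, and Vehicle and siCtrl libraries overlapped, as did siCtrl and siXBP1 libraries. The siXBP1 cells lay 0.30 below the MKC8866 cells on the log2 scale (adjusted p = 0.00024).

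ATP2C2 (ENSG00000064270, chr16:84368527-84464187, plus strand), the Golgi calcium and manganese pump, was slightly higher after knockdown. Its siCtrl libraries lay close together, at 46.2, 46.0, 46.2 and 46.4 CPM, and its siXBP1 libraries at 50.2, 51.4, 50.8 and 50.2. All 4 knockdown libraries lay above all 4 controls, as in 15.6% of all genes tested. The rise was 9.32% (interval 2.66 to 16.4%, log2 fold change 0.13 ± 0.04, adjusted p = 0.025), and it missed the threshold without siXBP1 replicate 2 (adjusted p = 0.052) and with no filter on low counts (adjusted p = 0.0514).

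With MKC8866 the ATP2C2 libraries stood at 42.6, 44.1, 45.3 and 47.2 CPM, against 45.8, 47.9, 49.4 and 47.4 in Vehicle cells. These overlapped, with a log2 fold change of −0.09 (interval −0.19 to 0.01, adjusted p = 0.397). The responses differed by 0.22 (0.10 to 0.35, adjusted p = 0.00716). The siXBP1 libraries were highest of the 4 groups and stood apart from the next group, Vehicle, and the Vehicle, siCtrl and MKC8866 libraries overlapped in that order. Of the exon bases of ATP2C2, 26.2% were shared with ATP2C2-AS1 on the other strand, which had 68 counts at most in a library and a log2 fold change of 0.16 after knockdown (adjusted p = 0.625).

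GJB1 (ENSG00000169562, chrX:71215194-71225516, plus strand) had the lowest level of the members in the control cells, at 4.58 ± 0.298 CPM in siCtrl and 3.97 ± 0.325 in Vehicle cells. It stood at 4.04 ± 0.386 in siXBP1 and 3.94 ± 0.442 in MKC8866 cells. All 4 groups overlapped. The log2 fold change was −0.19 after knockdown (interval −0.41 to 0.04, adjusted p = 0.2) and −0.01 with MKC8866 (−0.25 to 0.22, adjusted p = 0.977). With 101 to 162 counts per library it was also the least precisely measured of the 6 genes, and a loss of up to 24.9% after knockdown lay within the interval.

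Per kilobase of merged exons, BHLHA15 had the highest level of the members in siCtrl cells, at 38.7 CPM per kb, ahead of RAB3D at 15.1, RAB26 at 10.0, ATP2C2 at 6.28, RAB27A at 2.37, RAB27B at 2.29 and GJB1 at 2.05. In siXBP1 cells its level per kilobase was 3.22, below RAB3D, RAB26 and ATP2C2, and in MKC8866 cells it was 7.81, below RAB3D and RAB26. The level of BHLHA15 per kilobase rests on the 798 exon bases of the annotation used for counting, Ensembl release 85. GENCODE version 44, on the same genome build, gives the gene 3264 exon bases.

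That difference lies at the 3′ end. The counted gene, ENSG00000180535, spans chr7:98211427-98212979 on the plus strand and overlaps no other gene there, while the later annotation extends it to position 98215457. Of the 2478 added bases, 834 lie in exons of TECPR1 (chr7:98214624-98252251), a lysosomal and autophagosome tethering gene on the minus strand, 1645 bases beyond the counted end. TECPR1 fell too. It stood at 48.7 ± 1.96 CPM in siCtrl and 30.2 ± 0.798 in siXBP1 cells (log2 fold change −0.69, adjusted p = 1.98e-10), and at 45.7 ± 2.31 in Vehicle and 33.6 ± 3.78 in MKC8866 cells (−0.44, adjusted p = 4.68e-05). Its mean loss was 18.5 and 12.04 CPM, next to 28.3 and 25.1 CPM for BHLHA15. Fragments from a longer BHLHA15 transcript would be counted to TECPR1 without regard to strand, and their part in its fall was not tested. LMTK2, which ends 1794 bases before BHLHA15, had a log2 fold change of −0.20 after knockdown (adjusted p = 0.00206) and 0.07 with MKC8866 (adjusted p = 0.575).

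The genes whose profile over the 16 libraries was most like that of BHLHA15 were picked by the root mean square difference of log2 CPM, each gene centred on its own mean, among 15036 genes with a mean of at least 1 CPM. FICD, which AMPylates the chaperone BiP, came first with a difference of 0.53, followed by the unnamed gene ENSG00000270933 and DNAJB9, a BiP co-chaperone, both at 0.61, ZNF648 at 0.72 and FKBP11, a prolyl isomerase of the endoplasmic reticulum, at 0.73. FICD averaged 141 CPM in siCtrl, 24.5 in siXBP1, 111 in Vehicle and 26.7 in MKC8866 cells. The levels of ZNF648 were lower, 3.47 and 0.746 CPM in the siRNA arm and 3.77 and 1.79 in the inhibitor arm. RAB3D ranked 1947 by the same measure (1.43), RAB26 2774, GJB1 4342, RAB27B 7376, RAB27A 8756 and ATP2C2 9338. The measure is dominated by the treatment groups, which all these libraries share, and is a description.

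The promoters of these nearest genes were searched for the same motifs. The FICD window (chr12:108515027-108515326) held a full stress element, CCAATGGGAGTGGCCCACG, from position −154, 1 of 27 such windows among 34943. The DNAJB9 window (chr7:108569624-108569923) held 2 copies of CACGTG, from −73 and −49, which join the E-box letters with ACGT. The share of all windows that held CACGTG was not counted. FKBP11 had 2 windows. In 1 of them lay CACGTG from position 20 and the complement of TGACGTG from position −1, each containing ACGT, and in the other 2 further copies of ACGT and 1 of CCACG. The ZNF648 window held an E-box, CACCTG from position −191, but neither ACGT nor CCACG. Further E-boxes lay in the FICD window, from −240 and −76, and in the FKBP11 window with CACGTG, from −107. An E-box lay in 68.7% of all windows. For the unnamed gene ENSG00000270933 the search by name returned nothing, and whether it had a window to search was not recorded. These genes were picked by their profile in these data, and the part of such motifs in it was not tested.

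**Figure D3:**
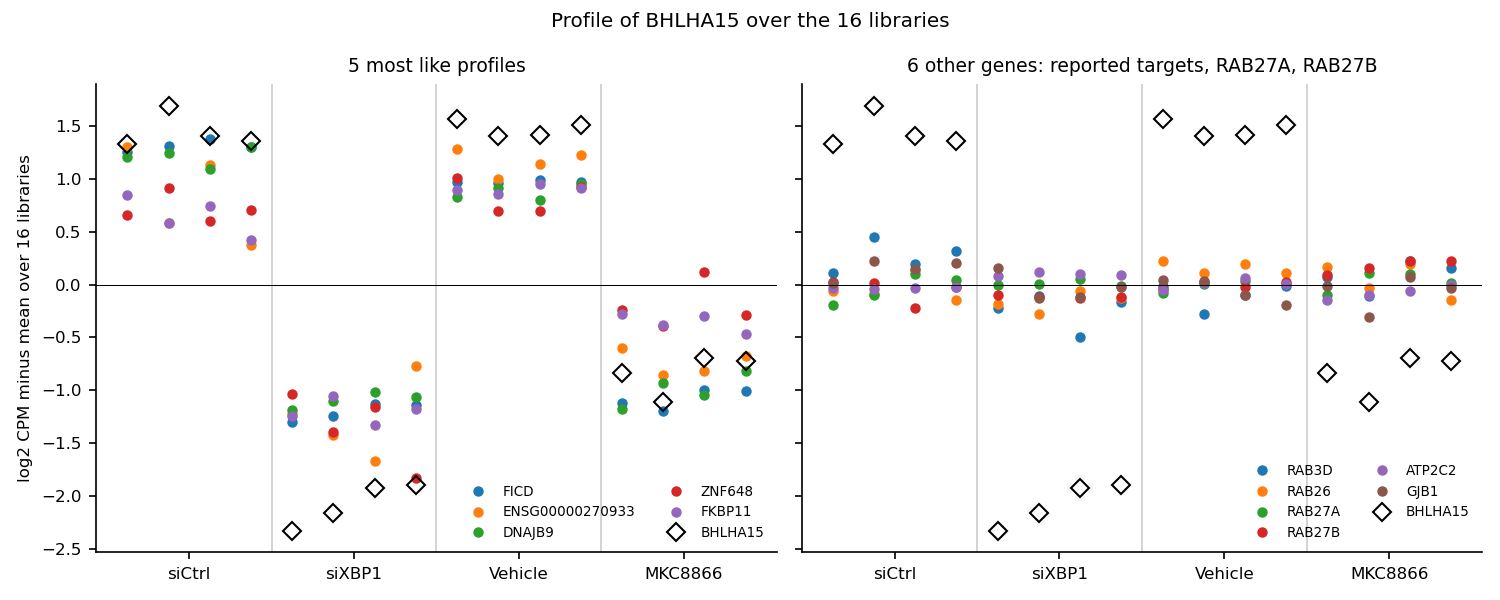
Log2 CPM of each gene minus its mean over the 16 libraries (y axis), by library in 4 groups (x axis). Open diamonds are BHLHA15 in both panels, and coloured points are the 5 genes of most like profile (left) or the 6 other genes (right). The nearest genes fall with BHLHA15 in both treated groups, and the 6 other genes stay near 0, RAB3D being higher in siCtrl libraries.

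To describe the machinery around these genes, 12 lists of 102 genes were followed, 75 of which could be tested after knockdown and 76 with MKC8866. After knockdown 20 were called lower and 18 higher. With MKC8866, 3 were called lower (SYTL1, STX3 and KRT18) and 2 higher (TMEM165 and KLK3). In percent, 50.7% of the tested list genes were called after knockdown and 6.58% with the inhibitor, beside 34.8% and 4.47% of all genes tested. The list genes were not matched to all genes by level, and the part of level in these shares was not tested.

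Of 3 further reported BHLHA15 targets, ELAPOR1, an endosomal and lysosomal membrane protein, rose after knockdown (log2 fold change 0.81, adjusted p = 2.05e-06), as did the cell cycle inhibitor CDKN1A (0.19, adjusted p = 0.000445), while the ubiquitin ligase MIB1 fell (−0.16, adjusted p = 0.00904, and 0.0506 without siXBP1 replicate 1). With MKC8866 their log2 fold changes were 0.02, −0.07 and 0.05, none past the threshold. The median of the 3 was 0.19 after knockdown. Their directions after knockdown were thus mixed, and 1 of 3 had the sign of BHLHA15. In that comparison 18.2% of all genes tested were called lower and 16.5% higher.

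The E proteins, partners of BHLHA15 on DNA, and the ID proteins, which sequester them, gave 2 lower and 2 higher calls of 7 after knockdown. Over all genes tested the shares were 18.2% lower and 16.5% higher. TCF3, which encodes the E proteins E12 and E47, fell from 86.7 ± 6.19 to 36.9 ± 0.953 CPM (−1.24, adjusted p = 1.21e-14). All 4 of its knockdown libraries lay below the controls, as in 16.7% of all genes tested. TCF3 stood at 90.5 ± 5.97 in Vehicle and 96.3 ± 8.57 in MKC8866 cells (0.09, adjusted p = 0.514), and the difference between the responses was −1.32 (adjusted p = 1.57e-13). TCF12 rose after knockdown (0.19), ID2 rose (0.44) and ID3 fell (−0.38).

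Of the other RAB3 genes and RAB37, all 3 that could be tested were called after knockdown, where 34.8% of all genes tested were called. RAB3B, the most abundant of them at 105 CPM in siCtrl cells, rose (0.47, adjusted p = 6.38e-07), and RAB3A (−0.45) and RAB37 (−0.57) fell. Of 12 tested effectors of RAB3 and RAB27, 5 were higher and 2 lower after knockdown, beside 16.5% and 18.2% of all genes tested. Those with the largest changes were RIMS2 (2.05), SYTL2 (0.75), RIMS1 (0.49) and EXPH5 (0.42), of which RIMS2 rose from 0.422 to only 1.76 CPM. SYTL1, a synaptotagmin-like effector of RAB27, fell after knockdown (−0.26, adjusted p = 0.00404) and with MKC8866 (−0.23, adjusted p = 0.028), the latter lost without Vehicle replicate 1, 3 or 4 or MKC8866 replicate 1 or 4 (adjusted p up to 0.124).

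Of the 14 regulators that load, recycle or switch these RABs, 4 were lower and 2 higher after knockdown. Beside this list and the next, 18.2% of all genes tested were called lower and 16.5% higher. GDI2, which extracts RABs from membranes, fell (−0.42, adjusted p = 1.2e-08), as did CHM, the escort protein for RAB prenylation (−0.38), and the RAB chaperone RABIF (−0.20). RAB3IL1 was called higher (0.16, adjusted p = 0.0438), a call lost without replicate 3 or 4 of either group (adjusted p up to 0.108). Of the 9 SNAREs and SM proteins of granule fusion, 3 were lower, VAMP3 (−0.55), VAMP2 (−0.50) and STX3 (−0.21), and 1 was higher, STX4, a syntaxin of the plasma membrane (0.16, adjusted p = 0.0131, and 0.0504 without siXBP1 replicate 2). STX3, a syntaxin of the apical membrane, was also called lower with MKC8866 (−0.23, adjusted p = 0.000459).

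Around ATP2C2, the Golgi ion transporter TMEM165 went in opposite directions in the 2 arms. It fell in the siRNA arm, 54.5 ± 3.82 against 40.6 ± 3.17 CPM (−0.43, adjusted p = 6.8e-06), and rose in the inhibitor arm, 68.8 ± 3.26 against 106 ± 6.21 CPM (0.63, adjusted p = 3.93e-09), and the difference was −1.05 (adjusted p = 3.2e-11). NUCB1, a Golgi calcium-binding protein, fell by 0.14 on the log2 scale after knockdown (adjusted p = 0.0318), a call lost without siCtrl replicate 2, 3 or 4 or siXBP1 replicate 1, 2 or 3 (adjusted p up to 0.137). Around GJB1, 11 of 15 other connexins were too low to test in either arm, and GJD3 was called higher after knockdown (1.60, adjusted p = 0.00555) at 0.212 and 0.654 CPM. GJC1, at 2.25 CPM in Vehicle and 3.16 in MKC8866 cells, had a log2 fold change of 0.49 with the inhibitor (adjusted p = 0.0579).

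Markers of the tissues known for BHLHA15 were followed in the same way. Of 14 acinar genes, 7 never exceeded 3 counts in a library, and their sum was 10.3 to 15.7 CPM in the siCtrl, Vehicle and MKC8866 libraries and 18.9 to 20.5 in the siXBP1 libraries. Of the 6 acinar genes tested after knockdown, where BHLHA15 was lowest, NR5A2 (1.03), CEL (0.76) and PRSS1 (0.58) were called higher. The other 3 were not called, the lowest at −0.67. Beside these and the markers below, 18.2% of all genes tested were called lower and 16.5% higher after knockdown. PRSS1 belongs to a family of near-identical trypsinogen genes and CEL has a close pseudogene, so their counts are uncertain. Of the 3 plasma cell genes tested, SDC1 was called higher (0.20, adjusted p = 0.0109). MZB1 had a log2 fold change of −0.32 (adjusted p = 0.0692), with all 4 knockdown libraries below all 4 controls, as in 16.7% of all genes tested. The remaining plasma cell gene tested had 0.42 and was not called. Of the luminal markers, TMPRSS2 (−0.89), KLK3 (−0.86), KLK2 (−0.78) and KRT18 (−0.35) fell after knockdown. With MKC8866 KLK3 rose (0.46) and KRT18 fell (−0.22). The basal, stromal, immune and endothelial markers summed to 25.8 to 37.5 CPM, nearly all from COL1A1 at 27.5 to 33.0 CPM in the group means. The part of these markers in the values of BHLHA15 and RAB3D was not tested.

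**Figure D4:**
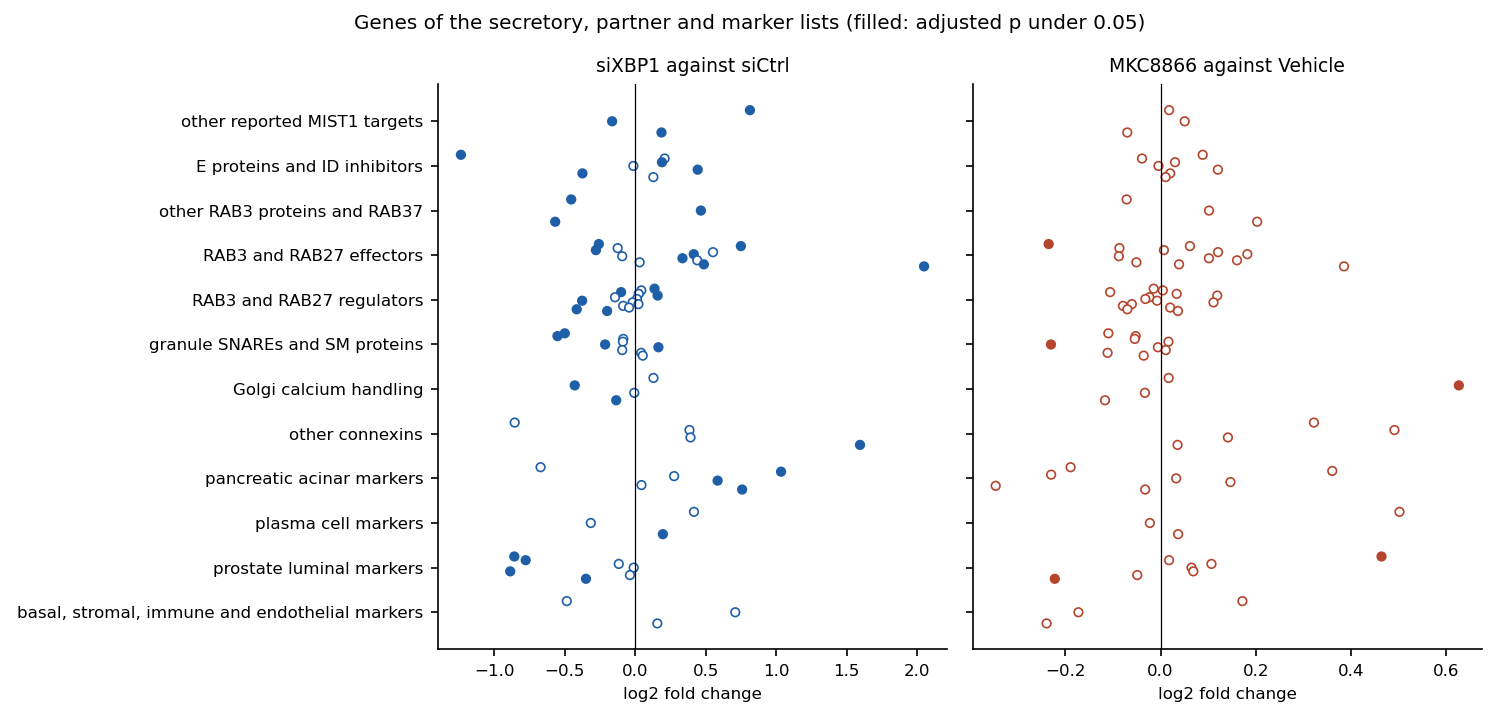
Log2 fold change (x axis) of each tested gene of the 12 lists (rows) for siXBP1 against siCtrl (left) and MKC8866 against Vehicle (right, on a narrower scale). Filled points passed the adjusted p of 0.05. After knockdown 20 filled points lie to the left of 0 and 18 to the right, and with MKC8866 3 to the left and 2 to the right.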

How the data were processed

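The authors aligned paired reads from a strand-preserving TruSeq kit to hg38 with STAR 2.5.2a and counted fragments per gene with featureCounts 1.5.0 on Ensembl release 85. The deposited counts are raw whole numbers for 58051 genes in 16 libraries. Per the file headers, counting ignored strand and left out fragments that matched several places or genes. Depth ran from 28713607 to 34509488 counts per library.

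Gene symbols were matched to 56948 of the gene IDs. The comparisons of siXBP1 with siCtrl and of MKC8866 with Vehicle were fitted separately in edgeR 4.0.16 (R 4.3.3) with TMM factors, the quasi-likelihood F test and Benjamini-Hochberg adjustment over all genes tested. A gene was tested if both groups had a library with more than 5 counts. The interaction, the 2 control groups and the 2 treated groups were compared in 1 fit of all 16 libraries, on 20357 genes. These comparisons share libraries with the first 2. The authors used DESeq2, run here as an alternative (1.42.0). SE is the fold change divided by the root of F, and intervals are 95%. The likeness measure added 0.125 CPM before taking log2. Promoters came from RefSeq (GRCh38.p14), exon overlaps from the counting annotation (Ensembl release 85), and the longer BHLHA15 exons from GENCODE version 44. The edgeR fits of the knockdown, the inhibitor and the interaction were tested on simulated data.

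The 7 genes and the lists were chosen with earlier results of these data known. Of the genes listed, 2 are not reported here and were left out of the list counts and sums. The genes named were the 7 members, XBP1, the 5 of most like profile, the nearest tested gene on each side of BHLHA15, genes overlapping a member, and from each list and comparison up to 4 called genes of largest change, or where none was called up to 2 of highest mean CPM. Further genes were named after their values were seen, where a count or level in the text turned on them: SYTL1 and MZB1 after knockdown, and JCHAIN, TNFRSF17, PTF1A, CPA1 and AMY2A. Alternatives were DESeq2, its size factors in edgeR, no filter, a stricter filter (a minimum of 10 counts throughout), 1 fit of all libraries, a block for the replicate number, and leaving out each library.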

Additional observations from a re-analysis of the deposited data

Results flagged for a closer look

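The responses to knockdown and to MKC8866 differed, by the interaction test over all 16 libraries, for 4 of the 7 members, beside 23.3% of all genes tested. The difference in log2 fold change (knockdown minus inhibitor) was −1.25 for BHLHA15, −0.70 for RAB3D, −0.24 for RAB27B and 0.22 for ATP2C2, with adjusted p values of 7.28e-08, 1.03e-05, 0.0352 and 0.00716. The RAB27B difference missed the threshold without any 1 of 10 of the 16 libraries and with no filter on low counts. For BHLHA15 both responses were falls. For RAB3D, RAB27B and ATP2C2 the fitted changes had opposite signs in the 2 arms. None of the 3 was called with MKC8866, though RAB3D and RAB27B were with a block for the replicate number. Between the siRNA and inhibitor arms the kind of inhibition, the transfection, the solvent and the time differed together and cannot be told apart.

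Of 55 named genes tested, 38 differed in this way, 24 with a negative and 14 with a positive difference. Most of these genes were named because they were called in an arm, so this count cannot be read against the 23.3% of all genes. XBP1, the target of the siRNA, differed by −3.05 in its count over both splice forms, with a fall after knockdown (−2.85) and a rise with MKC8866 (0.20). Among the partners and further targets these were TCF3 (−1.32), ID3 (−0.39), ID2 (0.33), TCF12 (0.16), ELAPOR1 (0.80), CDKN1A (0.26) and MIB1 (−0.21). Among the RAB genes and their effectors and regulators they were RAB37 (−0.77), RAB3A (−0.38), RAB3B (0.37), RIMS2 (1.67), SYTL2 (0.69), RIMS1 (0.45), CHM (−0.37), GDI2 (−0.34) and RABIF (−0.23). Among fusion, Golgi and junction genes they were VAMP3 (−0.50), VAMP2 (−0.39), TMEM165 (−1.05) and GJD3 (1.56). Among the markers they were KLK3 (−1.32), TMPRSS2 (−0.95), KLK2 (−0.79), CEL (0.79), NR5A2 (0.68), PRSS1 (0.55) and COL1A1 (0.40). Of the genes with a profile like that of BHLHA15, ZNF648 (−1.15), FKBP11 (−0.60), FICD (−0.46) and DNAJB9 (−0.44) differed, and of its neighbours LMTK2 (−0.27) and TECPR1 (−0.25). The differences of GJD3, MIB1, NR5A2, RABIF, TCF12 and TECPR1 each missed the threshold when some single libraries were left out, with adjusted p up to 0.0953. No library stood apart by Dixon's test in the 32 groups of 4 formed by the members and XBP1, where chance flags about 1 in 20.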

How the results depend on the processing

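BHLHA15 kept its direction and its call in both comparisons and in their difference under every alternative run, with log2 fold changes of −3.65 to −3.49 after knockdown and −2.38 to −2.26 with MKC8866 when a library was left out. RAB3D was called lower after knockdown in all of them (−0.56 to −0.44 with a library left out). Over all results that answer a comparison, 315 alternative values kept their direction and side, 3 reversed, 2 lost and 4 gained a call, and 13 counts moved by more than 1.5 times. With no filter on low counts ATP2C2 lost its call after knockdown (0.14), RAB27B lost that in the difference of responses (−0.24, adjusted p = 0.0984), RAB3D gained one with MKC8866 (0.19), and the members called rose from 1 to 2 with MKC8866 and from 1 to 2 between the control groups. DESeq2 also called 2 members between the control groups, RAB26 being the second. List genes called higher with MKC8866 rose from 2 to 4 under DESeq2 and to 4 with no filter.

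Leaving out 1 library gave 0.13 to 0.14 for ATP2C2 after knockdown, 0.13 to 0.24 for RAB3D with MKC8866, 1 to 2 members called with MKC8866 and 1 to 2 between the controls. Of uncalled differences near 0, several changed sign with a library left out: BHLHA15 between controls (−0.11 to 0.0062), GJB1 with MKC8866 (−0.066 to 0.053) and between treated groups (−0.038 to 0.078), RAB26 in the difference of responses (−0.086 to 0.047), and RAB27A in that difference (−0.0398 to 0.052), between controls (−0.083 to 0.0085) and between treated groups (−0.066 to 0.0044).

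With the replicate block, 3 members were called with MKC8866, RAB3D (0.18, adjusted p = 0.000244) and RAB27B (0.18, adjusted p = 0.0173) being added to BHLHA15, and the list genes called with MKC8866 rose to 10 lower and 8 higher. Calls over all genes rose likewise, from 941 to 2746 of 21045. The labels do not say that a replicate number marks a shared culture or day. Deviations of same-numbered libraries correlated at 0.0065 to 0.0621 in the siRNA arm and at 0.0843 to 0.336 in the inhibitor arm. In the inhibitor arm replicates 1, 2 and 4 correlated best with their own number, and replicate 3 did not (0.0843 against 0.141). In the siRNA arm no replicate correlated best with its own number. The block changed no other call of a member in the siRNA arm, the inhibitor arm or their difference. Depth limits GJB1 most, at 101 to 162 counts per library. Protein and the splicing of XBP1 were not analysed here.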
